A study of Mus musculus with 12 samples.

Results

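The nucleolar ribosome biogenesis genes are 39 listed genes whose proteins transcribe, modify, cut and assemble ribosomal RNA in the nucleolus. They were taken by symbol from the table of expression values, with no cut on their values. Earlier results of these data were known when the list was chosen. Of the 39 symbols, 38 were found among the 24881 of the table (Noc2l was not matched and was not analysed here), and all 38 passed the filter of a mean of at least 0.5 FPKM that left 12572 genes for testing. FPKM gives the fragments of a gene relative to the length of its transcripts and to the size of the library, so that genes can be compared with each other.

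RNA-seq was carried out on mouse R1 embryonic stem cells (ESCs) that carry the FUCCI reporters, fluorescent proteins that rise and fall with the cell cycle, and in every group the cells were sorted by FACS in G1 phase. WT cells and P53-/- cells, in which CRISPR/Cas9 was used to cut Trp53, were each grown in 2i or in serum. 2i is a serum-free medium with inhibitors of the kinases MEK and GSK3, and the cytokine LIF was added to both media. The comparisons ask how the members differ with genotype in each medium and between the media. This gave 4 groups of 2 libraries, named here as library 1 and 2 in the order of the columns. The study used P53-/- clones 1 and 2 for RNA-seq, each grown from a single edited cell, but its table names no clone for any library.

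Ribosomes are made in the nucleolus, where RNA polymerase I transcribes ribosomal DNA into a long precursor RNA. Small nucleolar RNPs, complexes of a guide RNA with the proteins fibrillarin (Fbl) or dyskerin (Dkc1) and their partners, modify this precursor. Assembly factors then fold and cut it into the small and large ribosomal subunits. In fast dividing cells such as ESCs these genes are highly expressed, and when ribosome assembly is disturbed, free ribosomal proteins bind MDM2 and stabilize P53.

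Many ribosome biogenesis genes carry an E-box, the letters CACGTG, near their transcription start, a motif bound by MYC and related factors. Sequences from 250 bases before to 50 bases after the start were taken from RefSeq (GRCm38.p6), which matched 34 of the 38 members. The E-box reads the same on both strands and was found in 7 of the 34 windows (20.6%), against 12.3% of the 9765 windows of tested genes. Below, the bases around each of these E-boxes are shown, with the E-box in capitals, because members that were lower in 2i and members that were not both carry it.
Imp4, chr1:34439696-34439725, plus strand: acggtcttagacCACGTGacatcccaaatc
Mybbp1a, chr11:72441355-72441376, plus strand: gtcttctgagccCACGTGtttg
Nop2, chr6:125131811-125131840, plus strand: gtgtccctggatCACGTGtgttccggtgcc
Pes1, chr11:3963965-3963994, plus strand: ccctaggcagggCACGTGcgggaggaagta
Tsr1, chr11:74898092-74898121, plus strand: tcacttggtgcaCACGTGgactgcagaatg
Utp20, chr10:88826765-88826789, minus strand: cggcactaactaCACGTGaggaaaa
Wdr43, chr17:71616220-71616249, plus strand: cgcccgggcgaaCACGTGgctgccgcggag

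The first base of the E-box stood 121 bases before the start in Imp4 and 60 before it in Nop2, while in Pes1, Wdr43, Tsr1, Utp20 and Mybbp1a it stood in the first 50 transcribed bases. Mybbp1a, Tsr1, Utp20 and Wdr43 were lower in 2i than in serum in both genotypes, whereas Nop2 and Pes1 had their higher mean in 2i. Among members with a window, the E-box was found in 4 of the 16 that were called lower in WT 2i and in 3 of the other 18. The ETS motif CCGGAAG, searched on both strands, stood in 10 of 34 windows (29.4%, against 20.9% of tested genes), and the YY1 motif AAGATGG, also on both strands, in 3 of 34 (8.82%, against 8.56%). No match of one motif overlapped a match of another, and a match is a match of letters only. Ncl, the member with the largest difference, held none of the 3 motifs in its window, of which the 250 bases before the start are given here in lower case.
Ncl, chr1:86359456-86359705, minus strand: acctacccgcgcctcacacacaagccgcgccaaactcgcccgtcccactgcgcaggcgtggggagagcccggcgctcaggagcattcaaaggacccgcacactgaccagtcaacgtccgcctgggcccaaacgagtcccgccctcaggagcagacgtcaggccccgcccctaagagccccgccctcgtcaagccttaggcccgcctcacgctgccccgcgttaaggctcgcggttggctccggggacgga

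Trp53 was checked first, because it is the edited gene. It was at 26.8 and 33.7 FPKM in WT 2i against 7.25 and 1.88 in P53-/- 2i, and at 77.6 and 75.1 in WT serum against 16.8 and 3.68 in P53-/- serum. The log2 fold change was -2.98 in 2i (adjusted p = 0.0547) and -3.26 in serum, where it was not called (adjusted p = 0.15). An FPKM value covers the whole gene and does not tell an edited from an intact transcript. Cdkn1a, the P53 target that encodes P21, fell by 2.24 on the log2 scale in 2i (adjusted p = 0.00218) and fell by 2.18 in serum (adjusted p = 0.00601). All 8 ESC markers (among them Pou5f1, Nanog and Zfp42) were between 23.2 and 2691 FPKM in every library. In 2i against serum, 1 of the 8 was called lower and 1 higher in WT (median log2 fold change 0.036). In P53-/- ESCs 4 were lower and 1 higher (median -0.56). Of 12 housekeeping genes 2 were lower and 3 higher in WT (median 0.004), and 1 lower and 6 higher in P53-/- ESCs (median 0.39). Among all tested genes 28.6% were called lower and 27.2% higher in WT, and 30.1% and 28% in P53-/- ESCs. Of 8 fibroblast markers, Col3a1 and Postn were at 0 in all libraries, and the list summed to 1.75 to 2.73 FPKM in 2i and 8.31 to 11.7 in serum, where most of it was Thy1. The 7 primitive endoderm markers summed to 1.63 to 4.36 FPKM in 2i and 1.28 to 2.93 in serum. Relative depth, read from the smallest steps between values, was 0.39 to 0.73 of that of WT serum library 1 in 2i and 0.53 to 1 in serum, and the share of all FPKM held by 1313 small RNA genes was 92.6% to 94% in 2i and 97.4% to 99.4% in serum. The part of these differences in the results was not tested.

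The members were among the more abundant transcripts of the cells. In each of the 4 groups, all 38 were above the median of the tested genes, and 14 or 15 in 2i and 21 in serum were above the 90th percentile. Their median level was 42.7 FPKM in 2i and 80.6 in serum in WT ESCs, and 41.9 in 2i and 80.2 in serum in P53-/- ESCs. The median of all tested genes was 8.28 and 8.73 in WT, and 8.21 and 8.73 in P53-/- ESCs. Npm1, which encodes the abundant nucleolar chaperone nucleophosmin, had the highest level in every group. The spread between the 2 libraries of a group was small, with a median SD of 0.057 to 0.132 on the log2 scale over the members and 0.106 to 0.178 over all tested genes.

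In 2i, many of these genes were expressed at a lower level than in serum, in WT as well as in P53-/- cells. In WT ESCs 18 of the 38 members were called lower in 2i and 0 higher, where called means an adjusted p under 0.1 in limma and a fold change over 1.5. Among all tested genes 28.6% were called lower and 27.2% higher, so that changes of this size between the media were common in both directions. In P53-/- ESCs 20 members were called lower and 1, Rrp9, higher, against 30.1% and 28% of tested genes. The median log2 fold change (2i over serum, of FPKM + 0.1) of the members was -0.53 in WT and -0.63 in P53-/- ESCs, and that of all tested genes -0.02 and -0.03. Under quantile normalization 13 members were called lower and 2 higher in WT, and 15 lower and 1 higher in P53-/- ESCs. In bulk RNA, fewer cells that express a gene and less of its RNA per cell cannot be told apart.

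**Figure D1:**
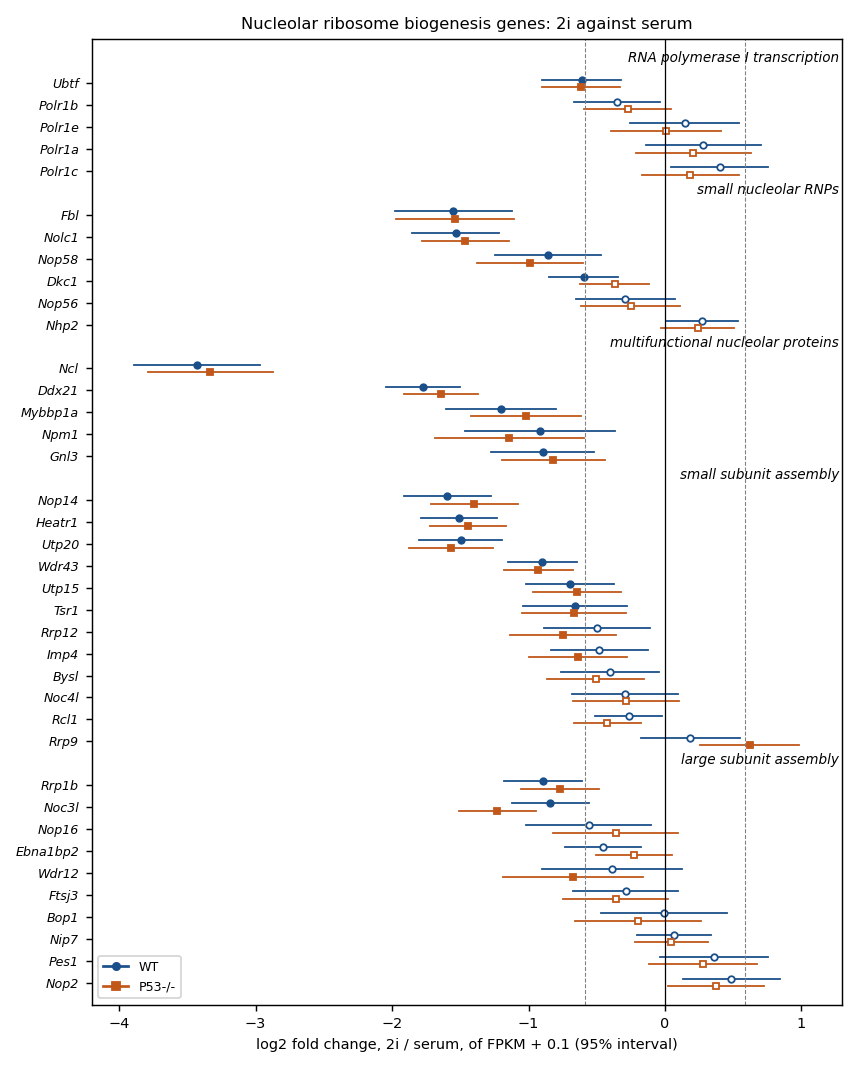
Log2 fold change of FPKM + 0.1 between 2i and serum for each of the 38 members, grouped by role, in WT (blue circles) and P53-/- ESCs (orange squares). Points are limma estimates, bars their 95% intervals, filled points are called and dashed lines mark a fold change of 1.5. Ncl stands furthest to the left at -3.43 and -3.33, and of the large subunit factors only Rrp1b, Noc3l and, in P53-/- ESCs, Wdr12 are filled.

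The same 17 members were called lower in 2i in both genotypes, where 28.6% of tested genes were called lower in WT and 30.1% in P53-/- ESCs. The share of tested genes called lower in both was not counted. Dkc1 was called lower in WT ESCs only, and Imp4, Rrp12 and Wdr12 in P53-/- ESCs only, but for none of the 4 did the test of the difference between the genotypes pass the threshold (adjusted p = 0.574, 0.801, 0.695 and 0.735). Taking each library by itself, all 4 2i libraries were lower than all 4 serum libraries for 25 of the 38 members (32% of tested genes), and higher for Nhp2, Nop2 and Rrp9 (28.8% of tested genes). Among the 25 with lower libraries, Bysl, Rcl1, Noc4l, Ebna1bp2 and Polr1b were not called in either genotype. For the other 10 members the libraries of the media overlapped.

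**Figure D2:**
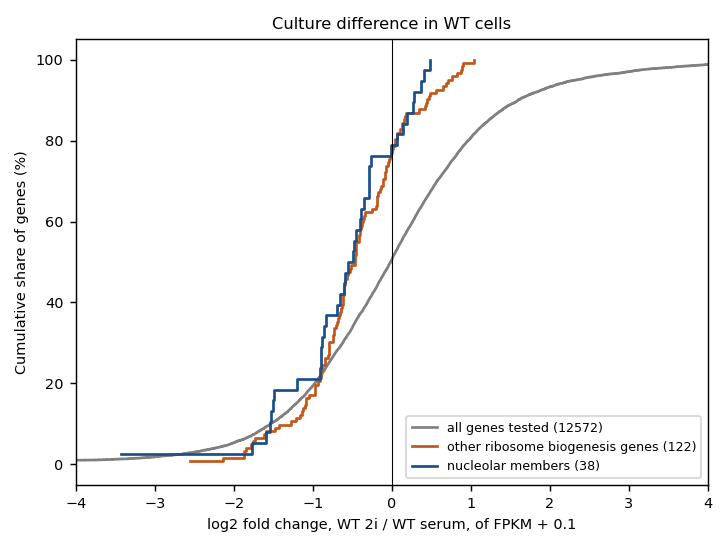
Cumulative share of genes (y axis, in %) by their log2 fold change between WT 2i and WT serum (x axis) for the 38 members (blue), 122 other ribosome biogenesis genes (orange) and all 12572 tested genes (grey). The members end at 0.49 on the right and the other ribosome biogenesis genes at 1.04, while the curve of all genes runs on in both directions, with medians of -0.53, -0.47 and -0.02.

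The 5 multifunctional nucleolar proteins had the largest median change of the 5 roles. All 5 (Ncl, Npm1, Gnl3, Ddx21 and Mybbp1a) were lower in 2i in both genotypes, with a median log2 fold change of -1.20 in WT and -1.14 in P53-/- ESCs. Among all tested genes 28.6% were called lower in WT and 30.1% in P53-/- ESCs. Ncl encodes nucleolin, an RNA-binding protein that takes part in the first steps of precursor processing. Ncl was at 31.4 and 48.4 FPKM in 2i against 436 and 406 in serum in WT ESCs, and at 38.7 and 33.6 in 2i against 377 and 351 in serum in P53-/- ESCs. The highest 2i library was thus far below the lowest serum library, with a log2 fold change of -3.43 (SE 0.20, adjusted p = 2.63e-05) in WT and -3.33 (SE 0.20, adjusted p = 2.09e-05) in P53-/- ESCs, or a level in serum 10.6 and 10.1 times that in 2i. In the order of the members by level, Ncl came 22nd in WT 2i and 2nd in WT serum. Ddx21 encodes an RNA helicase of the nucleolus. Ddx21 was at 44.2 and 42.1 FPKM in 2i against 148 and 147 in serum in WT ESCs, and at 46.2 and 43.8 in 2i against 151 and 130.4 in serum in P53-/- ESCs. The media were far apart relative to the libraries within a group, and its log2 fold change was -1.77 (SE 0.12, adjusted p = 3.32e-05) in WT and -1.64 (SE 0.12, adjusted p = 3.54e-05) in P53-/- ESCs.

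Mybbp1a encodes a nucleolar protein that binds RNA polymerase I and can also bind P53. Mybbp1a was at 75.4 and 82.1 FPKM in 2i against 172 and 191 in serum in WT ESCs, and at 89.96 and 64.6 in 2i against 166 and 144 in serum in P53-/- ESCs. All serum libraries were above all 2i libraries, and the log2 fold change was -1.20 in WT and -1.02 in P53-/- ESCs (adjusted p = 0.000736 and 0.00151). Gnl3 encodes nucleostemin, a GTPase of stem and progenitor cells. Gnl3 was at 98.97 and 103 FPKM in 2i against 183 and 193 in serum in WT ESCs, and at 88.6 and 111 in 2i against 155 and 199 in serum in P53-/- ESCs. It fell between the media by 0.90 on the log2 scale in WT and by 0.82 in P53-/- ESCs (adjusted p = 0.00219 and 0.00312). Npm1 was at 1475 and 1539 FPKM in 2i against 2916 and 2759 in serum in WT ESCs, and at 1604 and 1064 in 2i against 2777 and 2983 in serum in P53-/- ESCs. The 2i libraries were all below serum, but library 2 of P53-/- 2i stood apart from the other 3, and the log2 fold change was -0.91 in WT and -1.14 in P53-/- ESCs (adjusted p = 0.0115 and 0.0039). Under quantile normalization Npm1 was no longer called in either genotype (-0.54, adjusted p = 0.271, and -0.72, adjusted p = 0.152). Npm1 has processed pseudogenes, and how reads shared with them were counted is not given in the sources used here.

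**Figure D3:**
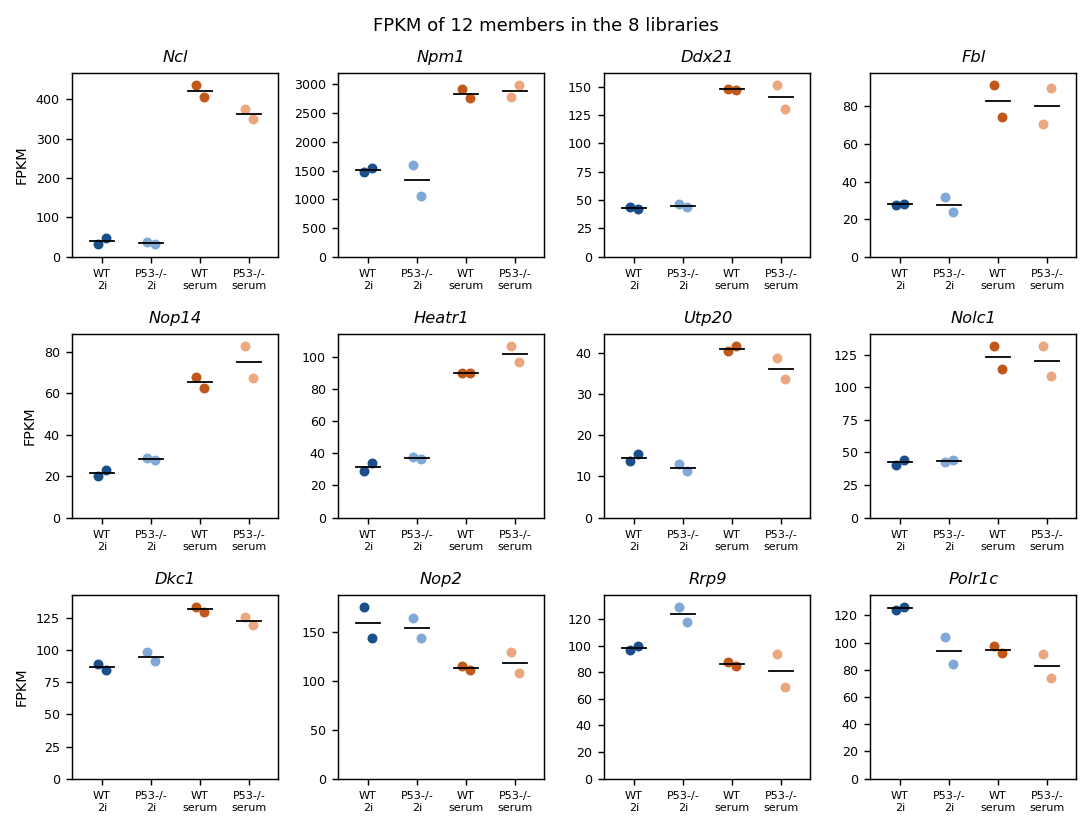
FPKM (y axis, starting at 0) of 12 members in the 8 libraries, with a point for each library and a line at the mean of each group. For Ncl, Npm1, Ddx21, Fbl, Nop14, Heatr1, Utp20, Nolc1 and Dkc1 all 2i points lie below all serum points, while for Nop2 and Rrp9 they lie above, and for Polr1c they overlap.

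Of the 6 proteins of small nucleolar RNPs, Fbl, Nolc1 and Nop58 were lower in 2i in both genotypes and Dkc1 in WT, whereas Nop56 and Nhp2 were not called. The share called lower was thus 66.7% in WT and 50% in P53-/- ESCs, against 28.6% and 30.1% of all tested genes. Fbl encodes fibrillarin, the enzyme that methylates ribosomal RNA at sites chosen by box C/D snoRNAs. Fbl was at 27.8 and 28.2 FPKM in 2i against 91.3 and 74.1 in serum in WT ESCs, and at 31.6 and 23.7 in 2i against 70.7 and 90.01 in serum in P53-/- ESCs. Its serum level was 2.95 times that of 2i in WT and 2.90 times in P53-/- ESCs, with a log2 fold change of -1.55 (SE 0.19, adjusted p = 0.000305) in WT and -1.54 (SE 0.19, adjusted p = 0.000274) in P53-/- ESCs. Nolc1 encodes a chaperone that carries small nucleolar RNPs to the nucleolus. Nolc1 was at 40.3 and 44.3 FPKM in 2i against 131 and 114 in serum in WT ESCs, and at 42.7 and 44.01 in 2i against 131 and 109 in serum in P53-/- ESCs. No library of 2i came near a serum library, and the log2 fold change was -1.53 in WT and -1.46 in P53-/- ESCs (adjusted p = 8.92e-05 and 8.91e-05).

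Nop58 and Nop56 encode paired core proteins of box C/D RNPs, in which they sit beside fibrillarin. Nop58 was at 164 and 217 FPKM in 2i against 368 and 318 in serum in WT ESCs, and at 196 and 188 in 2i against 405 and 358 in serum in P53-/- ESCs. Nop56 was at 149 and 158 FPKM in 2i against 197 and 179 in serum in WT ESCs, and at 161 and 132 in 2i against 194 and 156 in serum in P53-/- ESCs. Nop58 fell by 0.86 on the log2 scale in WT and by 0.99 in P53-/- ESCs (adjusted p = 0.00312 and 0.00143), whereas Nop56, whose media overlapped by library, had a log2 fold change of -0.29 in WT and -0.25 in P53-/- ESCs (adjusted p = 0.145 and 0.196). Dkc1 and Nhp2 belong to box H/ACA RNPs, which convert uridine to pseudouridine. Dkc1 was at 89.7 and 85.1 FPKM in 2i against 134 and 130.4 in serum in WT ESCs, and at 98.5 and 91.9 in 2i against 126 and 119.6 in serum in P53-/- ESCs. All its serum libraries were higher, and its log2 fold change of -0.60 in WT and -0.37 in P53-/- ESCs lay near the fold threshold (adjusted p = 0.0023 and 0.0192). Its call in WT ESCs was lost without WT 2i library 2 (-0.56) and without WT serum library 1 (-0.58), and also under quantile normalization (-0.38) and median-ratio scaling (-0.57). Nhp2 was at 262 and 244 FPKM in 2i against 207 and 212 in serum in WT ESCs, and at 263 and 269 in 2i against 222 and 229 in serum in P53-/- ESCs. It was thus higher in every 2i library, by 0.27 and 0.24 on the log2 scale, which did not reach the fold threshold (adjusted p = 0.075 and 0.103). The summed FPKM of the 6 genes was 1.43 times as high in serum as in 2i in each genotype.

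Of the 12 small subunit factors, which build and cut the precursor of the small subunit, 6 were called lower in 2i in WT ESCs (50%). In P53-/- ESCs 8 were called lower (66.7%) and 1 higher. Among all tested genes 28.6% were called lower in WT, and 30.1% lower and 28% higher in P53-/- ESCs. Nop14, Heatr1 and Utp20, proteins of the early precursor particle called the SSU processome, showed the largest differences. Nop14 was at 20.3 and 22.8 FPKM in 2i against 67.9 and 62.5 in serum in WT ESCs, and at 28.9 and 27.5 in 2i against 82.6 and 67.2 in serum in P53-/- ESCs. Heatr1 was at 29.2 and 33.9 FPKM in 2i against 89.9 and 89.7 in serum in WT ESCs, and at 37.9 and 36.7 in 2i against 107 and 96.9 in serum in P53-/- ESCs. Utp20 was at 13.6 and 15.3 FPKM in 2i against 40.4 and 41.6 in serum in WT ESCs, and at 12.9 and 11.4 in 2i against 38.6 and 33.7 in serum in P53-/- ESCs. In all 3 the serum libraries were at more than 2 times the level of any 2i library. The log2 fold change of Nop14 was -1.60 (SE 0.14, adjusted p = 7.95e-05) in WT and -1.40 (SE 0.14, adjusted p = 0.000111) in P53-/- ESCs. Heatr1 changed by -1.51 in WT and -1.44 in P53-/- ESCs (adjusted p = 6.18e-05 and 5.75e-05). Utp20 changed by -1.50 in WT and -1.57 in P53-/- ESCs (adjusted p = 8.76e-05 and 6.05e-05).

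Wdr43, Utp15 and Tsr1 were lower in 2i to a smaller degree. Wdr43 and Utp15 are WD-repeat proteins of the SSU processome that also act on transcription of ribosomal DNA, and Tsr1 is a late factor of the small subunit. Wdr43 was at 57.6 and 62.4 FPKM in 2i against 114 and 109.7 in serum in WT ESCs, and at 69.98 and 71.99 in 2i against 140.1 and 130.5 in serum in P53-/- ESCs. Utp15 was at 16.97 and 21.5 FPKM in 2i against 31.7 and 30.2 in serum in WT ESCs, and at 21.8 and 21.1 in 2i against 35.04 and 32.3 in serum in P53-/- ESCs. Tsr1 was at 64.5 and 75.2 FPKM in 2i against 116 and 105 in serum in WT ESCs, and at 72.4 and 54.3 in 2i against 105 and 94.5 in serum in P53-/- ESCs. For each of them no 2i library reached a serum library. The log2 fold change of Wdr43 was -0.90 in WT and -0.93 in P53-/- ESCs (adjusted p = 0.000333 and 0.000248). Utp15 changed by -0.69 in WT and -0.64 in P53-/- ESCs (adjusted p = 0.00357 and 0.00466) and Tsr1 by -0.66 in WT and -0.67 in P53-/- ESCs (adjusted p = 0.0095 and 0.00881). Without WT 2i library 1, Utp15 (-0.53) and Tsr1 (-0.55) were no longer called in WT ESCs, and Tsr1 was not called in P53-/- ESCs without P53-/- 2i library 2 (-0.46). Under quantile normalization Utp15 was called in neither genotype (-0.51 in each) and Tsr1 was not called in WT ESCs (-0.46).

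Imp4 and Rrp12 were called in P53-/- ESCs only. Imp4 binds the U3 snoRNA, which guides cleavage of the precursor, and Rrp12 takes part in export of the subunits. Imp4 was at 24.9 and 32.3 FPKM in 2i against 39.6 and 39.6 in serum in WT ESCs, and at 27.9 and 23.4 in 2i against 40.9 and 38.8 in serum in P53-/- ESCs. Rrp12 was at 21.3 and 18.2 FPKM in 2i against 29.5 and 26.3 in serum in WT ESCs, and at 18.5 and 14.7 in 2i against 30.7 and 25.1 in serum in P53-/- ESCs. In both genes all 2i libraries were below all serum libraries, with log2 fold changes of -0.48 in WT and -0.64 in P53-/- ESCs for Imp4 (adjusted p = 0.0277 and 0.008). The log2 fold change of Rrp12 was -0.50 in WT and -0.75 in P53-/- ESCs (adjusted p = 0.0341 and 0.00576). In WT ESCs Imp4 was called without WT 2i library 2 (-0.67) and Rrp12 without WT 2i library 1 (-0.61), and in P53-/- ESCs both calls were lost without P53-/- 2i library 2 (-0.51 and -0.58), and that of Imp4 also under quantile normalization (-0.49). Rrp9, another protein that binds the U3 RNA, was the only member called higher in 2i. Rrp9 was at 97.01 and 100.04 FPKM in 2i against 88.2 and 85.1 in serum in WT ESCs, and at 129 and 118 in 2i against 93.8 and 68.7 in serum in P53-/- ESCs. The mean of Rrp9 was highest in P53-/- 2i, next in WT 2i and lower in both serum groups. The log2 fold change between the media was 0.19 in WT and 0.62 in P53-/- ESCs (adjusted p = 0.334 and 0.00951). The call of Rrp9 was lost without P53-/- 2i library 1 (0.56, adjusted p = 0.0566) and without P53-/- serum library 2 (0.40, adjusted p = 0.0377). Rrp9 overlaps Parp3 on the opposite strand, as 18 of the 38 members overlap some gene, and the strand setting of the counting is not given in the sources used here.

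Among the 10 large subunit factors, Rrp1b and Noc3l were called lower in 2i in both genotypes, and Wdr12 in P53-/- ESCs only. The share called lower, 20% in WT and 30% in P53-/- ESCs, did not exceed the 28.6% and 30.1% of all tested genes. The median log2 fold change of the 10 (2i over serum) was -0.34 in WT and -0.29 in P53-/- ESCs, with 7 of the 10 below 0 in each. Of the 12572 tested genes 6366 were below 0 in WT and 6434 in P53-/- ESCs. Their summed FPKM was 1.06 times as high in serum in WT and 1.10 times in P53-/- ESCs, and in this sum Nop2 and Pes1, which had their higher mean in 2i, made up 159 and 101 of the 653 FPKM in WT 2i. Rrp1b is a nucleolar protein related to the yeast factor Rrp1, and Noc3l is a partner in early large subunit particles. Rrp1b was at 15.6 and 17.8 FPKM in 2i against 32.7 and 29.5 in serum in WT ESCs, and at 16.6 and 15.97 in 2i against 28.1 and 27.6 in serum in P53-/- ESCs. Noc3l was at 29.5 and 31.3 FPKM in 2i against 57.6 and 51.5 in serum in WT ESCs, and at 27.6 and 29.7 in 2i against 71.4 and 63.4 in serum in P53-/- ESCs. Both were lower in all 2i libraries, Rrp1b by 0.89 on the log2 scale in WT and 0.77 in P53-/- ESCs (adjusted p = 0.000587 and 0.00106) and Noc3l by 0.84 and 1.23 (adjusted p = 0.000735 and 0.000116).

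Bop1, Pes1 and Wdr12 form the PeBoW complex, which is needed for maturation of large subunit RNA. Of these only Wdr12 was called, in P53-/- ESCs. Wdr12 was at 30.2 and 50.4 FPKM in 2i against 51.99 and 50.4 in serum in WT ESCs, and at 35.3 and 29.7 in 2i against 51.6 and 52.04 in serum in P53-/- ESCs. Bop1 was at 22.3 and 31.9 FPKM in 2i against 27.4 and 26.3 in serum in WT ESCs, and at 24.8 and 20.9 in 2i against 29.5 and 23.1 in serum in P53-/- ESCs. Pes1 was at 104 and 98.1 FPKM in 2i against 82.3 and 74.8 in serum in WT ESCs, and at 116 and 81.1 in 2i against 82.1 and 77.9 in serum in P53-/- ESCs. Wdr12 in WT 2i library 2 was at the serum level and in library 1 far below it, so that its log2 fold change was -0.39 (SE 0.22, adjusted p = 0.163) in WT and -0.68 (SE 0.22, adjusted p = 0.0289) in P53-/- ESCs. Without that library 2 it was -0.76 in WT ESCs (adjusted p = 0.00545), and without P53-/- 2i library 2 (-0.55, adjusted p = 0.145) or P53-/- serum library 1 (-0.68, adjusted p = 0.101) or 2 (-0.67, adjusted p = 0.105) the call in P53-/- ESCs was lost, as it was under quantile normalization (-0.56). Bop1 had overlapping media (-0.01 in WT and -0.20 in P53-/- ESCs) and Pes1 had its higher mean in 2i (0.36 in WT and 0.28 in P53-/- ESCs), and neither was called.

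Nop2, Nop16 and Ftsj3 complete the large subunit factors with values by library. Nop2 is an RNA methyltransferase of the large subunit. Nop2 was at 175 and 143 FPKM in 2i against 115 and 111 in serum in WT ESCs, and at 163 and 143 in 2i against 129 and 107 in serum in P53-/- ESCs. It was higher in every 2i library, with a log2 fold change of 0.49 (SE 0.15, adjusted p = 0.0254) in WT and 0.37 (SE 0.15, adjusted p = 0.063) in P53-/- ESCs, which did not pass the fold threshold, but did without WT 2i library 2 (0.63). Nop16 was at 20.6 and 27.4 FPKM in 2i against 33.8 and 36.3 in serum in WT ESCs, and at 24.2 and 34.6 in 2i against 38.2 and 36.2 in serum in P53-/- ESCs. Ftsj3, a further RNA methyltransferase, was at 118 and 114 FPKM in 2i against 149 and 134 in serum in WT ESCs, and at 113 and 81.8 in 2i against 130.1 and 117 in serum in P53-/- ESCs. Neither was called, with log2 fold changes of -0.56 in WT and -0.36 in P53-/- ESCs for Nop16 and -0.29 in WT and -0.36 in P53-/- ESCs for Ftsj3. Nip7 (0.07 in WT and 0.05 in P53-/- ESCs) and Ebna1bp2 (-0.45 in WT and -0.23 in P53-/- ESCs) were not called either. Nop16 was called lower in WT ESCs without WT 2i library 2 (-0.76) and in P53-/- ESCs without P53-/- 2i library 2 (-0.62), and Ftsj3 in P53-/- ESCs without P53-/- 2i library 1 (-0.60), as was the small subunit factor Bysl (-0.70).

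Of the 5 RNA polymerase I genes only Ubtf, the factor that binds and opens ribosomal DNA, was called. This share of 20% in each genotype was below the 28.6% in WT and 30.1% in P53-/- ESCs of all tested genes called lower. The summed FPKM of the 5 genes in serum was 0.991 times that in 2i in WT and 1.09 times in P53-/- ESCs, and Polr1c, which had its higher mean in 2i, made up 125 of the 236 FPKM in WT 2i. Ubtf was at 51.9 and 50.03 FPKM in 2i against 78.8 and 77.1 in serum in WT ESCs, and at 47.5 and 49.4 in 2i against 81.8 and 67.4 in serum in P53-/- ESCs. All its 2i libraries were lower, with a log2 fold change of -0.61 (SE 0.12, adjusted p = 0.00379) in WT and -0.61 (SE 0.12, adjusted p = 0.00344) in P53-/- ESCs, near the fold threshold. Without WT 2i library 2 (-0.58 in WT) or P53-/- serum library 1 (-0.47 in P53-/-) it was no longer called, nor was it under quantile normalization (-0.44 in WT and -0.52 in P53-/-) or, in P53-/- ESCs, under median-ratio scaling (-0.56). Polr1a and Polr1b encode the catalytic subunits of the polymerase. Polr1a was at 24.4 and 19.1 FPKM in 2i against 17.9 and 17.7 in serum in WT ESCs, and at 23.00 and 16.8 in 2i against 17.7 and 16.3 in serum in P53-/- ESCs. Polr1b was at 22.4 and 27.1 FPKM in 2i against 32.01 and 31.05 in serum in WT ESCs, and at 24.9 and 25.2 in 2i against 32.7 and 28.1 in serum in P53-/- ESCs. Neither was called, with the higher mean of Polr1a in 2i (0.28 in WT and 0.21 in P53-/- ESCs) and that of Polr1b in serum (-0.35 in WT and -0.27 in P53-/- ESCs).

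Polr1c is a subunit shared with RNA polymerase III, and Polr1e is a subunit of polymerase I. Polr1c was at 124 and 126 FPKM in 2i against 97.7 and 91.97 in serum in WT ESCs, and at 104 and 83.9 in 2i against 91.7 and 73.6 in serum in P53-/- ESCs. Polr1e was at 11.4 and 15.2 FPKM in 2i against 12.8 and 11.1 in serum in WT ESCs, and at 11.3 and 10.5 in 2i against 11.5 and 10.1 in serum in P53-/- ESCs. The log2 fold change of Polr1c was 0.40 in WT and 0.18 in P53-/- ESCs (adjusted p = 0.0526 and 0.321), and that of Polr1e 0.14 in WT and 0.01 in P53-/- ESCs (adjusted p = 0.498 and 0.971). Under quantile normalization Polr1c (0.61, adjusted p = 0.0115) and Nop2 (0.68, adjusted p = 0.00504) were called higher in WT 2i.

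Summed over all 38 members, the level was 3854 ± 121 FPKM in WT 2i and 6476 ± 236 in WT serum, and 3666 ± 536 in P53-/- 2i and 6459 ± 67.8 in P53-/- serum (SD, n = 2). The sum in serum was 1.68 times that in 2i in WT and 1.76 times in P53-/- ESCs. Npm1 alone gave a large part of each sum, and without it the ratios were 1.55 and 1.53. Across the 38 members, the log2 fold change in WT had a Spearman's rho of -0.35 with transcript length, against -0.32 over 11864 tested genes with a length, and the points share libraries and depth. With the mean FPKM in WT serum, which itself enters the fold change, rho was -0.29 over the members and -0.38 over all 12572 tested genes. The part of expression level in the comparisons with all tested genes was not tested.

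Other genes of the same process were examined in 5 lists that hold 122 genes in all, each of which passed the filter. In WT ESCs 56 of the 122 were called lower in 2i and 9 higher, and in P53-/- ESCs again 56 and 9, with medians of -0.47 and -0.54. Among all tested genes the share called lower was 28.6% in WT and 30.1% in P53-/- ESCs, and the share called higher 27.2% and 28%. Of the other snoRNP genes 4 of 9 were lower in WT, led by Naf1 (-2.56, adjusted p = 0.000144), an assembly factor of H/ACA RNPs, and Gar1 (-2.14, adjusted p = 3.25e-05), a partner of Dkc1 in the same particle. Of the other small subunit factors 20 of 42 were lower and 5 higher, led by Nol10 (-1.88) and the helicase gene Ddx10 (-1.43). Of the other large subunit factors 25 of 49 were lower and 2 higher, led by Brix1 (-1.86) and the helicase gene Ddx51 (-1.78). Near the share of all tested genes called lower, 4 of 12 RNA exosome genes (33.3%), whose products trim precursor RNA, were lower and 2 higher, led by the helicase gene Mtrex (-1.87) and the nuclease gene Dis3 (-1.73). Of the other RNA polymerase I genes 3 of 10 (30%) were lower, also near that share, led by Twistnb (-1.10) and Znrd1 (-0.67), both polymerase subunits.

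Several members hold snoRNA genes in their introns. The table had 12 such snoRNA genes in 6 hosts (Ncl, Nop56, Nop58, Gnl3, Wdr43 and Tsr1), and for 8 of the 12 all 2i libraries were lower than all serum libraries. Among the 94 other snoRNA genes with a value above 0, 55 (58.5%) showed this order, so that the order was common among snoRNA genes. Snord82, in an intron of Ncl, was at 22546 and 17605 FPKM in WT 2i against 307979 and 1770000 in WT serum. Snord110, in an intron of Nop56, was at 213489 and 320101 in WT 2i against 1130000 and 6250000 in WT serum, while Nop56 itself was not called. FPKM values of genes this short are very large and differed several-fold between the serum libraries. The part of intronic snoRNA fragments in the values of the host genes was not tested.

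No member was called for P53 deletion in either medium. In 2i, where the WT libraries are those of the comparison of media in WT ESCs, none of the 38 members was called between P53-/- and WT ESCs in limma, where 10.3% of tested genes were called, and 2 (Nop14 and Polr1c) had an unadjusted p under 0.05, as did 3173 of the 12572 tested genes. The 1299 genes behind this share fell to 771 and 491 without P53-/- 2i library 1 or 2, to 694 and 688 without WT serum library 1 or 2, and to 193 in a fit of the 2i groups only. The members' median log2 fold change (P53-/- over WT) was -0.04 and that of all tested genes 0.02. The sign of the members' median was not stable, since it was -0.10 without P53-/- 2i library 1, 0.05 without P53-/- 2i library 2, 0.02 without WT 2i library 2 and -0.19 under quantile normalization. The 95% interval lay within a fold change of 1.5 in both directions for 28 of the 38 members, against 27.6% of tested genes. The width of an interval depends on the SE, whose median was 0.155 over the members and 0.202 over all tested genes. By library, both P53-/- libraries were above both WT libraries for 8 members (29% of tested genes) and below for 6 (24.7%).

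**Figure D4:**
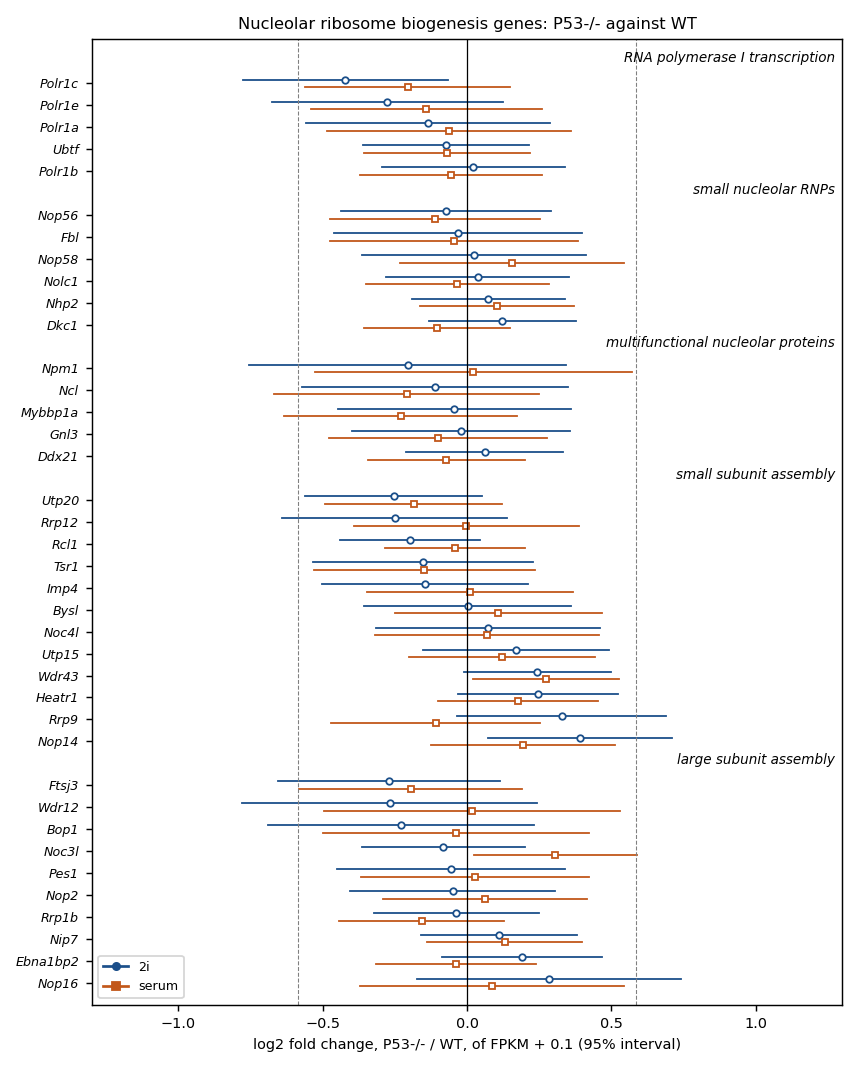
Log2 fold change of FPKM + 0.1 between P53-/- and WT ESCs for each of the 38 members, grouped by role, in 2i (blue circles) and serum (orange squares). Points are limma estimates and bars their 95% intervals, open points are not called, and dashed lines mark a fold change of 1.5. No point passes a dashed line, with estimates from -0.42 to 0.39 in 2i and from -0.23 to 0.30 in serum.

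The largest estimates in 2i above 0 were those of Nop14, Rrp9 and Nop16. Nop14 had both P53-/- libraries above WT and a log2 fold change of 0.39 (95% interval 0.07 to 0.71, adjusted p = 0.127). Rrp9, at 129 and 118 FPKM against 97.01 and 100.04 in WT, had a log2 fold change of 0.33 (-0.03 to 0.69, adjusted p = 0.24). For Nop16 the libraries overlapped (0.28, -0.17 to 0.74, adjusted p = 0.42). The largest estimates below 0 were those of Polr1c, Polr1e and Ftsj3. Polr1c, at 104 and 83.9 FPKM against 124 and 126 in WT, had a log2 fold change of -0.42 (-0.78 to -0.07, adjusted p = 0.137), and under quantile normalization it was called lower (-0.61, adjusted p = 0.0639). Polr1e and Ftsj3 had P53-/- libraries below WT, with log2 fold changes of -0.28 (adjusted p = 0.37) and -0.27 (adjusted p = 0.36). Wdr12 was called lower only without WT 2i library 1 (-0.64, adjusted p = 0.0664), and its value with all libraries was -0.27.

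In serum, again none of the 38 members was called (1.02% of tested genes), and 2 (Noc3l and Wdr43) had an unadjusted p under 0.05, against 1422 of the 12572 tested genes. The 128 genes behind this share fell to 62 and 52 without WT serum library 1 or 2, to 63 without P53-/- serum library 2, to 80 and 79 without P53-/- 2i library 1 or 2, and to 37 in a fit of the serum groups only. The members' median log2 fold change was -0.04, with 0.02 for all tested genes, and it was -0.090 without P53-/- serum library 1, 0.050 without P53-/- serum library 2, 0.0003 without WT serum library 1 and -0.063 without WT serum library 2. The interval lay within a fold change of 1.5 for 35 of the 38 (36% of tested genes), with a median SE of 0.155 over the members and 0.202 over all tested genes. Both P53-/- libraries were above WT for 5 members (25.7% of tested genes) and below for 7 (21.8%). Noc3l was at 71.4 and 63.4 FPKM in P53-/- against 57.6 and 51.5 in WT serum, a log2 fold change of 0.30 (0.02 to 0.59, adjusted p = 0.401). Wdr43 was at 140.1 and 130.5 FPKM against 114 and 109.7, a log2 fold change of 0.27 (0.02 to 0.53, adjusted p = 0.405), and that of Nop14 was 0.19 with overlapping libraries. Mybbp1a, Ncl and Polr1c had the lowest estimates, -0.23, -0.21 and -0.21, with both P53-/- libraries below WT in each (adjusted p = 0.66, 0.734 and 0.651).

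The effect of P53 deletion was then compared between the media. None of the 38 members was called for this difference in limma, where 0.207% of tested genes were, and none had an unadjusted p under 0.05, against 1651 of the 12572 tested genes. The 26 genes behind this share became 69 without WT 2i library 1, 54 without P53-/- serum library 1, 44 without WT serum library 1 and 66 with a pseudocount of 1. Rrp9 had the highest estimate, with an effect in 2i larger than in serum by 0.44 on the log2 scale (-0.08 to 0.95, adjusted p = 0.45), and Noc3l the lowest (-0.39, -0.79 to 0.01, adjusted p = 0.393). The interval lay within a fold change of 1.5 for 16 of the 38 (10.8% of tested genes), and for the other 22 it reached past this fold change. The median SE was 0.219 over the members and 0.286 over all tested genes.

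Among the 122 other ribosome biogenesis genes, 3 were called for P53 deletion in 2i (10.3% of tested genes) and none in serum (1.02%) or for the difference (0.207%). Utp18, a small subunit factor, was higher in P53-/- 2i (0.65, adjusted p = 0.0412). Ttf1, which ends transcription by RNA polymerase I, was lower (-0.69, adjusted p = 0.0366), as was the large subunit factor Nle1 (-0.61, adjusted p = 0.0708). An unadjusted p under 0.05 was found for 23 of the 122 in 2i, 8 in serum and 6 for the difference, against 3173, 1422 and 1651 of the 12572 tested genes.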

How the data were processed

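The members and gene lists were chosen with earlier results of these data known. Total RNA was depleted of ribosomal RNA and made into stranded libraries, per the labels. The authors deposited FPKM values, scaled by transcript length and mapped fragments, in 1 table with a line for each gene symbol. The submitters' processing notes name STAR, Cufflinks, DESeq2 and mm9, without versions or roles, and the annotation is not given in the sources used here. The columns give genotype and culture only. P21-/- ESCs and the WT 2i libraries made beside them were not analysed here. No count model was used. Depth in fragments is unknown, and relative depth was read from the steps between low values.

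The 12572 genes whose mean reached 0.5 FPKM were tested by limma (3.58.1, R 4.3.3) after log2 transformation with a pseudocount of 0.1. The 4 groups shared a fit, eBayes used a trend, and p-values were adjusted over all genes tested (Benjamini-Hochberg). A call needed an adjusted p below 0.1 together with more than 1.5-fold change. Nothing in the labels says that the libraries of a group came from separate cultures, so p-values measure the spread between these libraries, which may be technical. In the P53-/- groups the spread may also hold differences between clones 1 and 2, which the columns do not name. The shared fit pools it with the spread of the WT groups. The fit was checked on simulated data with large changes, for P53-/- against WT in 2i only. The other comparisons and counts were not checked in this way. Values by library are given for members called in any contrast and for core members of each role. They are also given for the 3 largest changes in each direction for 2i against serum in WT and for P53 deletion in each medium. Other ribosome biogenesis genes are named where they were called for P53 deletion or were among the 2 largest changes of a list. Promoter windows came from RefSeq (GRCm38.p6), and overlaps and lengths from GENCODE M21, on another build than the table, matched by symbol. Alternatives were quantile normalization, median-ratio scaling, pseudocounts of 1 and 0.01, a minimum mean of 1 FPKM, no minimum, a fit restricted to the groups compared, no trend, no small RNA genes, a threshold of 0.05 and each library left out. Counts and figures were made with pandas 2.3.3, numpy 2.4.6, matplotlib 3.10.9 and Python 3.11.15.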

Additional observations from a re-analysis of the deposited data

How the results depend on the processing

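The precision is limited by the 2 libraries per group, and FPKM values give no counting error. No paired analysis was possible because the columns carry no replicate numbers. In the comparison of 2i with serum, 13 of 18 called members in WT and 13 of 21 in P53-/- ESCs kept their call under all 18 alternatives, and no called member changed its sign. Where a call was lost or gained, the cause was not tested. A fit with a library left out also has fewer values from which to estimate the spread. Under quantile normalization 2 members (Nop2 and Polr1c) were called higher in WT 2i, 1 (Polr1c) was called lower in P53-/- 2i against WT, and the members' median was -0.34 for 2i against serum in WT, -0.50 in P53-/- ESCs and -0.19 for P53-/- against WT in 2i. With each library left out in turn, members called lower in 2i ranged from 17 to 19 in WT and from 17 to 22 in P53-/- ESCs, and members called higher from 0 to 1 in each. Members called lower for P53-/- against WT in 2i ranged from 0 to 1. The members' median ranged from -0.63 to -0.51 for the media in WT and from -0.66 to -0.53 in P53-/- ESCs, from -0.10 to 0.05 for P53-/- against WT in 2i, from -0.090 to 0.050 in serum and from -0.10 to 0.07 for the difference.

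Over all genes, 1299 were called for P53-/- against WT in 2i, 128 in serum and 26 for the difference. At an adjusted p under 0.05 these counts were 771, 73 and 16, and in fits of the compared groups only they were 193 and 37. The difference gave 66 calls with a pseudocount of 1, 40 without the trend and 40 without small RNA genes. Leaving out single libraries, the calls ranged from 491 to 1224 in 2i, from 52 to 148 in serum and from 19 to 69 for the difference.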
